A study of Mus musculus with 16 samples.

Results

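The osteocyte genes described here are 9 genes used as markers of osteocytes, the cells embedded in mineralised bone: Dmp1, Sost, Mepe, Phex, Fgf23, Pdpn, Fbln7, Gja1 and Cd44. They were chosen by name, and every probe annotated to one of these symbols was taken, which gave 14 of the 25697 probes on the array and 9 of 16593 named genes. Cd44 had 6 probes and each of the other 8 genes had 1. The arrays came from 4 groups of 4 mice each, 1 array per mouse: Ali35 bone and wild-type bone, from animals aged 120 days, and Ali35 brain and wild-type brain, from animals aged 3 days. All 16 mice were of the inbred strain C3H/HeJ. The Ali35 line is mutant for Shc2, which encodes an adaptor protein of receptor signalling. The labels gave neither the sex of the mice nor how many mutated copies they carried. Every array was read in 1 colour on Illumina bead arrays, and the values are normalized intensities, for which the number of arrays limits the precision.

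Osteocytes arise from osteoblasts that become walled into the matrix they make, and they remain joined to each other through long cell processes. They act on bone in several ways: they release sclerostin, the product of Sost, which blocks Wnt signalling in bone-forming cells; they set phosphate balance through the hormone FGF23; and they control the mineral around them through the related proteins encoded by Dmp1 and Mepe and through the cell-surface protein encoded by Phex. Pdpn encodes podoplanin, a membrane protein of the cell processes of young osteocytes, and Gja1 encodes connexin 43, which forms the gap junctions between them. Several of these genes are used in other cells too, Pdpn in lymphatic vessels and choroid plexus and Gja1 in astrocytes.

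In bone, no osteocyte gene was called as different between Ali35 and wild-type mice at an adjusted p under 0.05. Mepe, Phex, Pdpn, Gja1 and Cd44 were well above the low end of the scale on all 8 bone arrays, Fbln7 and Sost lay close to it, and Dmp1 and Fgf23 were mostly below it. Values below an intensity of 16 were set to 16, called the floor, and a probe entered the test of a tissue if at least 4 of the 8 arrays were at or above 16. Of the 14 probes, 8 (7 genes) passed this filter in bone and 0 were called by limma with Benjamini-Hochberg adjustment over all probes, while 24.6% of all 12223 probes tested in bone were called. At an unadjusted p under 0.05, 2 of the 8 passed, as did at least the same 24.6% of all probes tested in bone. In brain, 4 of the 14 probes were tested and Pdpn was the 1 that was called, lower in Ali35 brain. Of all 10922 probes tested in brain, 3.64% were called. The Pdpn call was lost in all 8 fits with 1 array left out.

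Before the values, 1 array needs naming. On Ali35 bone replicate 1, the 2 probes of Xist, which is transcribed from the inactive X chromosome of female cells, gave intensities of 221 and 167, and no other bone array passed 11.7 and 7.17 on them. Eif2s3y, a gene of the Y chromosome, was at -2.50 there and between 410 and 686 on the remaining 7. For Sost, Phex, Gja1 and Cd44 the bone changes, and for several lists the counts of called genes, are given with and without this array. Xist and Eif2s3y were compared on the bone arrays only, so nothing is said of the brain arrays. Within each group, arrays correlated at 0.977 to 0.991 in bone and 0.983 to 0.992 in brain across the probes tested in that tissue. The bone samples also read strongly for marrow and muscle: the summed intensity of 7 neutrophil markers was 122880 to 139490 on Ali35 bone arrays and 112740 to 123330 on wild-type bone arrays, and that of 8 skeletal muscle markers was 80455 to 119370 on Ali35 and 84249 to 93471 on wild-type bone arrays. The 5 neuron markers summed to 8242 to 8971 on Ali35 brain arrays and 8166 to 9161 on wild-type brain arrays, and to at most 60.3 in Ali35 bone and 68.5 in wild-type bone. In such bulk tissue, fewer cells of a type and less RNA per cell cannot be told apart.

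Upstream sequence is shown here for the genes that shared a feature in it, beside a pair that lacked it. The windows are the 60 bases before each gene's RefSeq transcription start in the C57BL/6J reference (build GRCm38.p6), read 5′ to 3′ on the gene's strand, and the capitals mark TTTAAA, a run that resembles the TATA box carried by many regulated genes close to their start. Both strands of the run read the same.
Dmp1 (downstream start), chr5:104202557-104202616, plus strand: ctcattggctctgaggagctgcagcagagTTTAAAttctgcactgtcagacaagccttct
Sost, chr11:101967016-101967075, minus strand: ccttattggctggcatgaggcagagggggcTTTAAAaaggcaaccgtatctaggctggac
Fgf23, chr6:127072842-127072901, plus strand: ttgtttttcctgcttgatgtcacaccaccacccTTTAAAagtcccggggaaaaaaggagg
Pdpn, chr4:143299565-143299624, minus strand: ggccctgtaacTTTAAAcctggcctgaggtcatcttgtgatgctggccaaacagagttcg
Phex, chrX:157415287-157415346, minus strand: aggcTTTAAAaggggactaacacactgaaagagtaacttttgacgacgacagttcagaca
Mepe, chr5:104325269-104325328, plus strand: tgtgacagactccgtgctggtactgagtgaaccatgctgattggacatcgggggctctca
Gja1, chr10:56377240-56377299, plus strand: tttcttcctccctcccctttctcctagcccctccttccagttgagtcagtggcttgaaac

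The run begins 31 bases before the start in Dmp1, 30 in Sost, 27 in Fgf23, 49 in Pdpn and 56 in Phex. In Pdpn and Phex it thus lies farther upstream than a TATA box usually does. It is in 5 of the 10 windows of the 9 genes, since Dmp1 has a pair of annotated starts and only the downstream one holds it, and in 2.79% of 32851 such mouse windows. It was picked after the sequences had been read, so these shares are a description. The letters TATAAA were in 0 of the 10 windows and in 3.92% of all. The letters TGTGGT, the core that Runx factors bind, were in 0 of the 10 (3.17% of all), and TGANTCA, an AP-1 site, was in that of Gja1 alone (1.47% of all); both strands were searched. The genes with TTTAAA do not form 1 group by level in bone: Phex and Pdpn were bright on every array, while Dmp1, Sost and Fgf23 were near or below the floor.

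Among the genes of mineral and phosphate control, Mepe and Phex were above the floor on every bone array and neither was called. Mepe read 281, 229, 279 and 382 on the Ali35 bone arrays and 396, 166, 237 and 303 on the wild-type bone arrays. The wild-type range enclosed the whole Ali35 range. The means were 293 ± 64.1 in Ali35 bone and 275 ± 97.8 in wild-type bone (SD, n = 4 each), a log2 change of 0.14 ± 0.26 (SE; 95% interval -0.43 to 0.71; limma, adjusted p = 0.725). Its sign was carried by wild-type replicate 2: without that array the change was -0.08. Mepe varied more between bone mice than most probes did, 2.39-fold from the lowest to the highest array against a median of 1.675-fold over all probes tested in bone.

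Phex, an endopeptidase-like surface protein whose loss causes X-linked low-phosphate rickets, read 388, 229, 274 and 257 in Ali35 bone and 262, 240, 226 and 323 in wild-type bone. The highest value was that of Ali35 replicate 1, the array that also read high for Xist, and the other 3 Ali35 arrays lay among the wild-type arrays. The log2 change was 0.11 ± 0.18 (95% interval -0.28 to 0.51; limma, adjusted p = 0.677) with all arrays and -0.04 without that array (adjusted p = 0.848). Phex lies on the X chromosome; what part the array's X-linked signal has in its value was not tested.

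Dmp1, which encodes an acidic matrix protein that osteocytes secrete, read 8.64, 2.97, 10.4 and 18.4 in Ali35 bone and 10.0, 5.16, 6.48 and 11.97 in wild-type bone. Only 1 of the 8 arrays, Ali35 replicate 4, reached 16, so Dmp1 was not well above background and was not tested. With the filter lifted, its log2 change was 0.05 ± 0.07 (limma, adjusted p = 0.647), nearly all of it set by the floor. Fgf23, the phosphate-lowering hormone, stayed below 16 on all 16 arrays: its highest readings were 10.8 in Ali35 bone and 11.3 in wild-type bone. These 2 probes place no useful bound on a change in either gene. Dmp1 and Mepe lie in 1 run of matrix-protein genes on chromosome 5, in the order Dspp, Dmp1, Ibsp, Mepe and Spp1. Of this run Ibsp, which was chosen after its values were seen, had a log2 change in bone of 0.13 ± 0.17 that was not called, Dspp stayed below the filter, and Spp1 was not analysed here.

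Sost read 21.8, 2.24, 21.3 and 22.2 in Ali35 bone and 17.6, -1.70, 12.6 and 15.1 in wild-type bone. It reached 16 on 3 of 4 Ali35 arrays and on 1 of 4 wild-type arrays. In both genotypes replicate 2 was the lowest by far and lay at background, and apart from it every Ali35 array was above every wild-type array. The log2 change was 0.30 ± 0.12 (95% interval 0.02 to 0.57), with an unadjusted p of 0.0371 and an adjusted p of 0.106 (limma). Without Ali35 replicate 2 the change was 0.41 with an adjusted p of 0.0233 (limma). That was the only 1 of the 8 fits with 1 array left out in which Sost was called. Over these fits the change was 0.25 to 0.41 and the adjusted p 0.0233 to 0.209. Without Ali35 replicate 1 the change was 0.26 (limma, adjusted p = 0.190). Since wild-type values mostly sat at the floor, the size of this difference is set in part by the floor, and the whole signal lay within a few units of it.

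**Figure D1:**
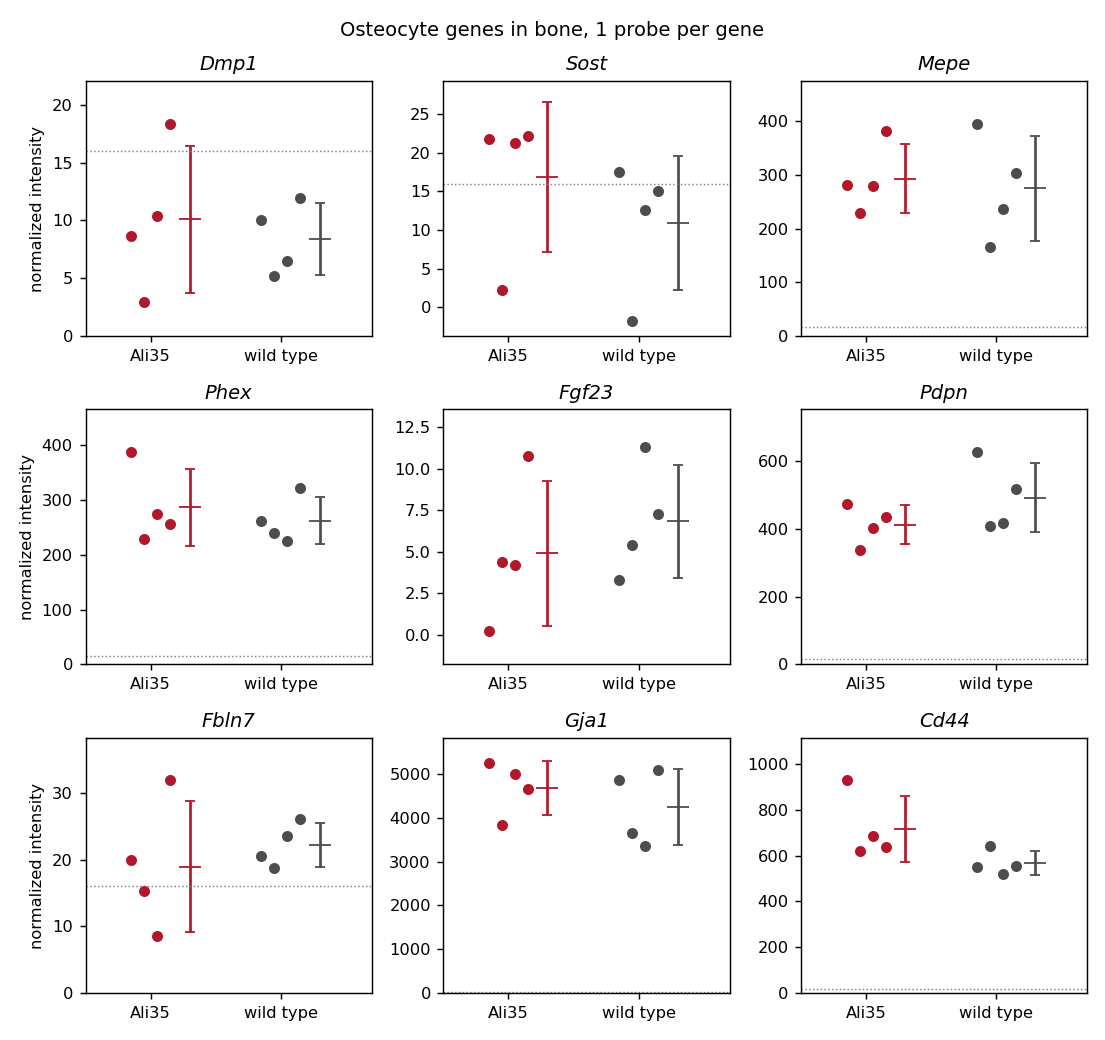
Normalized intensity (linear scale, y axis) of the 9 osteocyte genes in bone, 1 panel per gene with its brightest probe; each point is 1 mouse, with Ali35 left of wild type, and the bar gives the mean and SD of 4 arrays. The dotted line is the floor of 16; Mepe, Phex, Pdpn, Gja1 and Cd44 lie far above it and the genotypes overlap in all 9 panels.

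Among the genes of cell processes, contacts and adhesion, Pdpn read 472, 337, 403 and 435 in Ali35 bone and 626, 407, 417 and 517 in wild-type bone. The top pair of values were wild-type and the lowest pair were Ali35, with the rest overlapping. The means were 412 ± 57.4 in Ali35 bone and 492 ± 102 in wild-type bone (SD, n = 4 each), a log2 change of -0.24 ± 0.16 (95% interval -0.61 to 0.12; limma, adjusted p = 0.301). Gja1 read 5252, 3849, 4995 and 4654 in Ali35 bone and 4860, 3656, 3366 and 5104 in wild-type bone. The groups overlapped over nearly their whole range. Its log2 change was 0.16 ± 0.16 (95% interval -0.21 to 0.52; limma, adjusted p = 0.512). Without Ali35 replicate 1, its highest array, the change was 0.098 (limma, adjusted p = 0.719).

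Cd44 encodes a receptor for hyaluronan and osteopontin that is also abundant on marrow leukocytes. Its bright probe read 929, 619, 686 and 637 in Ali35 bone and 553, 643, 518 and 555 in wild-type bone. A single wild-type array, replicate 2, exceeded some of the Ali35 arrays, and Ali35 replicate 1 stood well above the rest. The means were 718 ± 144 in Ali35 bone and 567 ± 53.2 in wild-type bone (SD, n = 4 each), a log2 change of 0.32 ± 0.14 (95% interval 0.0022 to 0.65), with an unadjusted p of 0.0487 and an adjusted p of 0.128 (limma). Without Ali35 replicate 1 it was 0.19 (adjusted p = 0.239). The probes of Cd44 did not all see this signal. The second probe read 30.6 to 35.3 in Ali35 bone and 24.6 to 36.9 in wild-type bone (log2 change 0.18 ± 0.14; limma, adjusted p = 0.348), and the other 4 stayed below 16 on all 16 arrays. The bright probe was the 1 of 6 annotated to a different RefSeq transcript from the other 5.

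Markers of the marrow leukocytes, which also carry Cd44, did not move one way. The summed intensity of 7 neutrophil markers, given above, averaged higher in Ali35 bone, and of these Mpo alone was called higher (0.56 ± 0.11; limma, adjusted p = 0.00853), on 2 of its 3 probes. The sum of 4 B lymphocyte markers was 1735 to 2773 in Ali35 bone and 3043 to 3489 in wild-type bone, with Cd79b called lower (-0.55 ± 0.13; limma, adjusted p = 0.0153) on both its probes. The lowest of these sums was that of Ali35 replicate 1, and the other Ali35 arrays lay at 2365 to 2773. Of 3 macrophage markers 0 were called. Their sum, 9935 to 17777 in Ali35 bone and 19803 to 21432 in wild-type bone, was nearly all Lyz2 (-0.52 ± 0.18), while Adgre1 had a change of 0.16 ± 0.13. The part of these cells in the Cd44 values was not tested.

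Fbln7, a fibulin of the extracellular matrix, read 19.9, 15.3, 8.54 and 31.9 in Ali35 bone and 20.5, 18.7, 23.6 and 26.1 in wild-type bone. Both the lowest and the highest array were Ali35. It reached 16 on 2 of 4 Ali35 arrays and on 4 of 4 wild-type arrays, and its log2 change was -0.14 ± 0.22 (95% interval -0.63 to 0.35; limma, adjusted p = 0.678). Over the 8 member probes tested in bone, 6 changes were positive and 2 negative, with sizes from 0.11 to 0.32 and a median of 0.15. Over all probes tested in bone, the median change was -0.04 and the median size was 0.25.

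**Figure D2:**
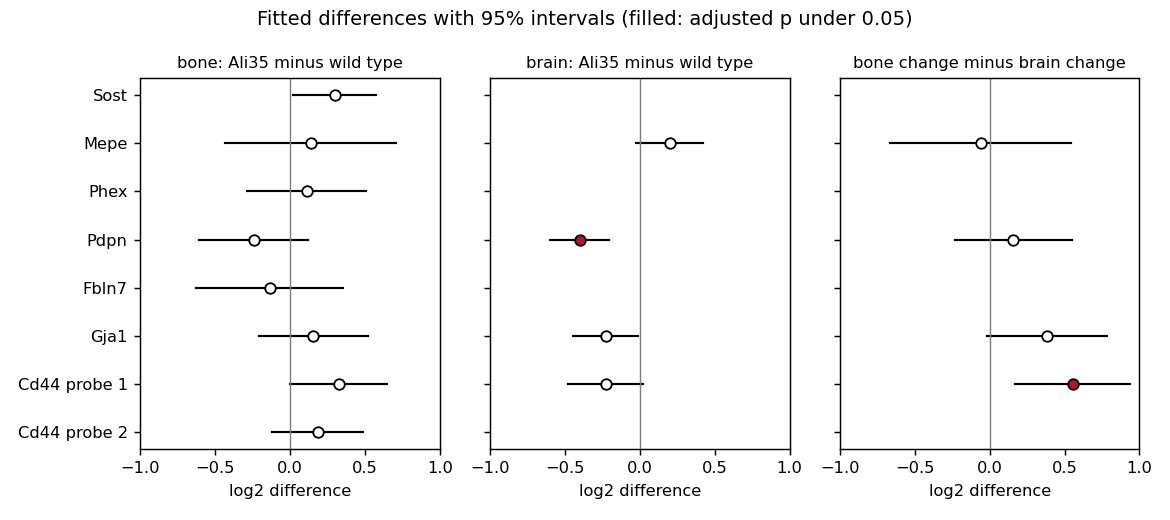
Log2 differences with 95% intervals from limma for each member probe tested: Ali35 minus wild type in bone (left), Ali35 minus wild type in brain (middle) and the bone change minus the brain change (right); filled points were called at an adjusted p under 0.05. All bone changes lie between -0.24 and 0.32 and none is filled, while Pdpn in brain (-0.40) and the difference of the Cd44 changes (0.55) are filled.

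In brain, Pdpn fell in Ali35 pups. It read 325, 327, 366 and 369 in Ali35 brain and 489, 455, 446 and 441 in wild-type brain. Every Ali35 array was below every wild-type array, as was the case for 6.88% of the probes tested in brain. The means were 347 ± 23.9 in Ali35 brain and 458 ± 21.7 in wild-type brain (SD, n = 4 each), a log2 change of -0.40 ± 0.09 (95% interval -0.60 to -0.20), which is 1.32-fold lower (limma, adjusted p = 0.0419). Of all 10922 probes tested in brain, 3.64% were called, 1.74% as lower. The call is near the threshold: leaving out any 1 of the 8 arrays gave a change of -0.43 to -0.37 and an adjusted p of 0.0515 to 0.118. The bone change minus the brain change was 0.16 ± 0.19 (limma, adjusted p = 0.562), so a difference of the Pdpn change between the tissues was not shown.

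Markers of the brain cells that can carry Pdpn were read beside it. Of the 5 listed markers of choroid plexus and meninges, 4 were tested and 0 were called, with a summed intensity of 8249 to 8775 in Ali35 brain and 8536 to 10464 in wild-type brain. Ttr, the transthyretin made by the choroid plexus, averaged 3827 in Ali35 brain and 4937 in wild-type brain (log2 change -0.36 ± 0.10; limma, adjusted p = 0.0776). The summed intensity of 3 lymphatic endothelial markers was 93.5 to 113 in Ali35 brain and 80.2 to 117 in wild-type brain, with 2 of the 3 below 16 on all brain arrays. Of 6 tested markers of astrocytes and radial glia, Gfap was called lower (-0.58 ± 0.13; limma, adjusted p = 0.0465, lost in all 8 fits with 1 array left out), and the median over the 6 was -0.05. The sum over the 7 listed, 5502 to 6411 in Ali35 brain and 4642 to 5265 in wild-type brain, was nearly all Slc1a3, which averaged 5296 in Ali35 brain and 4414 in wild-type brain and was not called. Of 4 tested oligodendrocyte markers, Cnp was called lower (-0.54 ± 0.12; limma, adjusted p = 0.0457, lost in all 8 fits with 1 array left out) on 1 of its 2 probes, and the median was -0.62. The sum over the oligodendrocyte list was 2386 to 3183 in Ali35 brain and 2945 to 3557 in wild-type brain. Of 4 tested erythroid markers, Alas2 was called lower (-1.19 ± 0.28; limma, adjusted p = 0.0457, lost in 7 of 8 fits with 1 array left out), and the sum over the list was 3577 to 7027 in Ali35 brain and 6721 to 11961 in wild-type brain. The part of these cells and of blood in the Pdpn values was not tested.

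Gja1 read 1520, 1607, 1506 and 1691 in Ali35 brain and 2031, 1655, 1743 and 1998 in wild-type brain. Only 1 wild-type array, replicate 2, fell within the Ali35 range. The log2 change was -0.23 ± 0.10 (95% interval -0.45 to -0.01; limma, unadjusted p = 0.0424, adjusted p = 0.196). Of the 4 members tested in brain, Gja1 and Pdpn had an unadjusted p under 0.05, both lower in Ali35 brain. The share of all brain probes under this threshold was not counted, so nothing about the members as a set follows from it. In bone the Gja1 change was 0.16, and the bone change minus the brain change was 0.38 ± 0.19 (limma, adjusted p = 0.152).

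Mepe and Cd44 were close to the floor in brain. Mepe read 14.45, 19.7, 19.8 and 20.2 in Ali35 brain and 5.14, 8.51, 8.52 and 17.8 in wild-type brain. It passed the filter through 3 Ali35 arrays and 1 wild-type array, and its log2 change was 0.20 ± 0.10 (limma, adjusted p = 0.269). The bright Cd44 probe read 18.4, 11.7, 8.40 and 7.81 in Ali35 brain and 21.3, 15.4, 21.2 and 19.7 in wild-type brain. Here 1 Ali35 array and 3 wild-type arrays reached 16, and the log2 change was -0.23 ± 0.11 (limma, adjusted p = 0.250). Dmp1, Sost, Phex, Fgf23 and Fbln7 stayed below 16 on all 8 brain arrays.

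Cd44 was the 1 of 4 member probes whose genotype change differed between the tissues. The bone change minus the brain change was 0.55 ± 0.18 (95% interval 0.17 to 0.94; limma interaction term, adjusted p = 0.0362), among 24.4% of 9225 probes called in this comparison. Neither of the changes it is made of was called by itself. Without Ali35 bone replicate 1 it was 0.42 (adjusted p = 0.0574), and with a floor of 32 it was 0.32 (adjusted p = 0.112). The brain side rested on readings at the floor. The same difference was -0.06 ± 0.29 for Mepe (limma, adjusted p = 0.898).

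Brain served as the contrast tissue. Between wild-type bone and wild-type brain, 8 member probes were tested and 6 were called, each higher in bone. Phex, Fbln7, Sost and the second Cd44 probe stayed below 16 on all brain arrays and entered only through bone, so their direction was fixed by the filter, and 3 of the 6 calls are theirs. That comparison called 86.2% of 14011 probes, 64.5% as higher and 21.7% as lower in bone, and its median over all probes was 0.94 on the log2 scale. Bone and brain also differed in age and had been normalized separately, and these cannot be told apart, so the values were taken again after joint quantile normalization of all 16 arrays, where the median over all probes was 0.09.

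Cd44, Phex and Mepe were far higher in wild-type bone under both scalings. The bright Cd44 probe averaged 567 in wild-type bone and 19.4 in wild-type brain, where 3 of 4 arrays reached 16, a log2 difference of 4.86 ± 0.13 (limma, adjusted p = 4.44e-16) and of 3.99 after joint normalization. Phex averaged 263 in wild-type bone and was below the floor on all 4 wild-type brain arrays, so it was at least 16.3-fold higher in bone on the deposited scaling. Its direction was fixed by the filter, so no p-value is given for it. That bound depends on the scaling and the floor: the log2 difference was 3.44 after joint normalization and 3.02 with a floor of 32. Mepe averaged 275 in wild-type bone and 9.99 in wild-type brain, where 1 of 4 arrays reached 16. The brain side was therefore set mostly by the floor, and the log2 difference of 3.99 ± 0.20 (limma, adjusted p = 4.08e-12) became 3.32 after joint normalization and 3.03 with a floor of 32.

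Pdpn and Gja1, which are also active in brain cells, were bright in both tissues. Pdpn averaged 492 in wild-type bone and 458 in wild-type brain, a log2 difference of 0.08 ± 0.13 (limma, adjusted p = 0.560) that turned to -1.09 after joint normalization (adjusted p = 8.31e-07). Gja1 averaged 4247 in wild-type bone and 1857 in wild-type brain, a log2 difference of 1.18 ± 0.13 (limma, adjusted p = 2.67e-07) that became -0.05 after joint normalization (adjusted p = 0.732). For both genes the direction between tissues therefore depended on the scaling. Fbln7 was at least 1.38-fold higher in wild-type bone on the deposited scaling but was not called after joint normalization (log2 difference 0.23; limma, adjusted p = 0.0623). The second Cd44 probe was at least 1.79-fold higher on the deposited scaling. Its log2 difference was 0.48 after joint normalization and 0.05, no longer called, with a floor of 32 (limma, adjusted p = 0.298). For Fbln7 and this probe too, the filter fixed the direction. Sost lay at the floor in both tissues too closely for a fold.

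**Figure D3:**
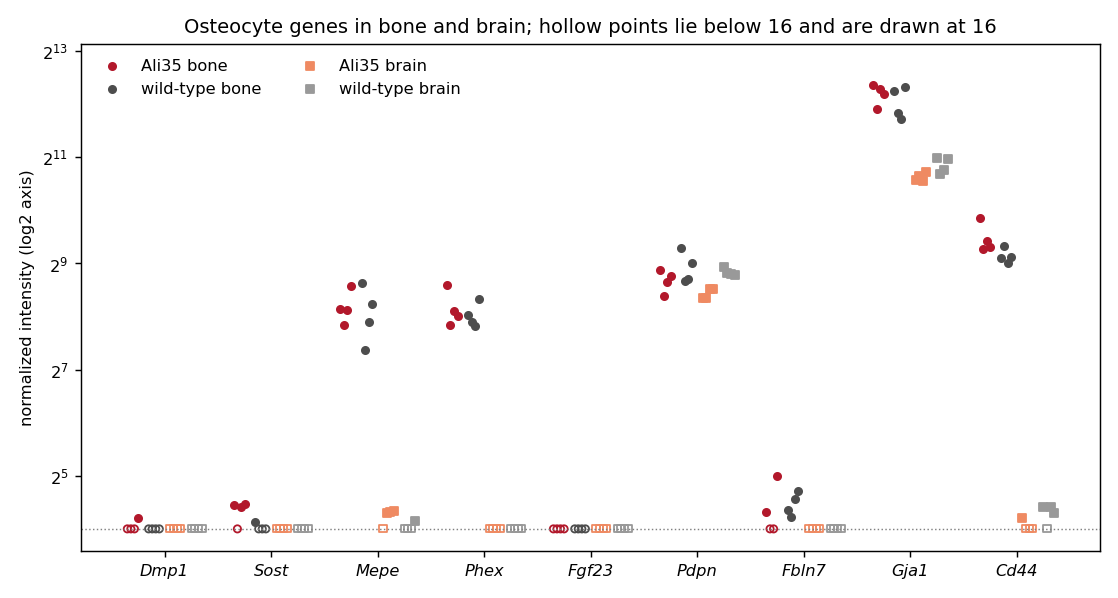
Normalized intensity of the osteocyte genes in bone (120 days) and brain (3 days), 1 point per mouse, on a log2 axis with values below the floor of 16 drawn hollow at 16; Ali35 stands left of wild type in each tissue. Mepe, Phex and the bright Cd44 probe separate the tissues, whereas Pdpn and Gja1 are bright in both.

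Genes that act with the members were counted from 6 lists, taking the brightest probe of each gene. The lists were chosen with earlier results of these data known. Their counts, set beside the shares of all probes, are therefore a description. In bone, 12.7% of all probes were called higher in Ali35 and 11.9% lower. Of 11 tested genes of mineral and phosphate handling, 4 rose and 0 fell, with a median log2 change of 0.34. Vdr, the vitamin D receptor, averaged 186 in Ali35 bone and 68.5 in wild-type bone (1.46 ± 0.18; limma, adjusted p = 0.00109), and all 3 of its probes rose. Alpl, the phosphatase that frees phosphate for mineral, averaged 973 in Ali35 bone and 463 in wild-type bone (1.04 ± 0.20; limma, adjusted p = 0.00702). Furin, a convertase that cleaves FGF23 among many proteins, averaged 2222 in Ali35 bone and 1234 in wild-type bone (0.85 ± 0.10; limma, adjusted p = 0.00101), and both of its probes rose. Pth1r, the receptor of parathyroid hormone, rose by 0.76 ± 0.21 (limma, adjusted p = 0.0260) on its brightest probe, was called on 2 of 3 probes, and lost its call in 3 of 8 fits with 1 array left out.

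Of 10 tested genes of gap junctions and mechanosensing, the setting of Gja1, 5 rose and 0 fell, with a median of 0.55. Itga5, an integrin subunit that binds fibronectin, averaged 131 in Ali35 bone and 59.7 in wild-type bone (1.15 ± 0.16; limma, adjusted p = 0.00199). Pkd1, the polycystin of primary cilia, averaged 157 in Ali35 bone and 77.2 in wild-type bone (1.06 ± 0.19; limma, adjusted p = 0.00507), and Panx3, a channel protein of osteoblasts and cartilage, averaged 215 in Ali35 bone and 130 in wild-type bone (0.73 ± 0.14; limma, adjusted p = 0.00764). The calcium channel gene Trpv4 (0.69 ± 0.18) and the integrin gene Itgav (0.48 ± 0.13) also rose, and each lost its call in at least 4 of the 8 fits with 1 array left out.

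Of 15 tested genes of sclerostin and Wnt regulation, 2 rose and 0 fell, with a median of 0.16. Lrp4, which binds sclerostin, averaged 355 in Ali35 bone and 209 in wild-type bone (0.76 ± 0.11; limma, adjusted p = 0.00188), and Dkk1, another Wnt inhibitor, averaged 31.3 in Ali35 bone and 19.6 in wild-type bone (0.63 ± 0.20; limma, adjusted p = 0.0469), a call lost in 6 of 8 fits with 1 array left out. Of 10 other osteocyte-associated genes, 3 rose and 0 fell: Hyou1, a chaperone induced by low oxygen (0.92 ± 0.13), the homeobox gene Irx5 (0.84 ± 0.21) and Mmp14, a membrane-bound collagenase needed for osteocyte processes (0.63 ± 0.14). Mmp14 averaged 1530 in Ali35 bone and 990 in wild-type bone (limma, adjusted p = 0.0135). Hyou1 averaged only 41.6 in Ali35 bone and 21.9 in wild-type bone, near the floor. Over 11 other settings its change ranged from 0.37 to 0.92, and its call was lost in 1 of them.

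Of 7 tested fibulins and elastic fibre genes, the setting of Fbln7, 3 rose: Eln, the gene for elastin (1.06 ± 0.19; limma, adjusted p = 0.00610), Mfap2 (0.67 ± 0.16) and Emilin1 (0.42 ± 0.13, lost in 7 of 8 fits with 1 array left out). Of 9 tested partners of Cd44 and podoplanin, 0 rose and 1 fell. It was Clec1b, which encodes CLEC-2, the platelet receptor of podoplanin, at 101 ± 36.7 in Ali35 bone and 199 ± 29.6 in wild-type bone (SD, n = 4 each; log2 change -1.04 ± 0.24; limma, adjusted p = 0.0153). It stayed called in all 8 fits with 1 array left out. In brain, where 1.9% of all probes were called higher, these 6 lists held 1 called gene, Mef2a, a transcription factor of the MEF2 family (0.53 ± 0.11 higher; limma, adjusted p = 0.0395, lost in 7 of 8 fits with 1 array left out).

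Markers of other bone cells changed on the same arrays. Of 9 tested osteoblast markers, 4 rose and 0 fell, led by Sp7 (1.06 ± 0.11) and Col1a1, which averaged 10915 in Ali35 bone and 2974 in wild-type bone (1.91 ± 0.23; limma, adjusted p = 0.00100). Their summed intensity was 56499 to 80214 in Ali35 bone and 44533 to 61201 in wild-type bone, so the sums overlapped. The highest sum was that of Ali35 replicate 1, and the other Ali35 arrays, at 56500 to 57950, lay within the wild-type range. Alpl and Ibsp are in both the osteoblast list and the mineral list, so the call of Alpl is counted in both. Of 6 tested cartilage markers, 4 rose, and the sum over the list was 9006 to 12603 in Ali35 bone and 2186 to 4336 in wild-type bone. Of 5 tested osteoclast markers, 2 rose, Mmp9 (0.76 ± 0.12) and Oscar (0.53 ± 0.16, lost in 6 of 8 fits with 1 array left out), and the sum over the list was 8371 to 10158 in Ali35 bone and 7634 to 8112 in wild-type bone. Of 8 tested skeletal muscle markers, 3 rose, Ryr1 (1.32 ± 0.20, on 3 of its 4 probes), Myh4 (1.05 ± 0.21) and Atp2a1 (0.43 ± 0.13, lost in 7 of 8 fits with 1 array left out). The part of these cells in the values of the osteocyte genes and of the lists was not tested. Of the osteocyte genes, 0 of 7 were called, against 24.6% of all probes tested in bone. With only 7 genes, of which Sost and Fbln7 lay near the floor, this does not set them apart.

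**Figure D4:**
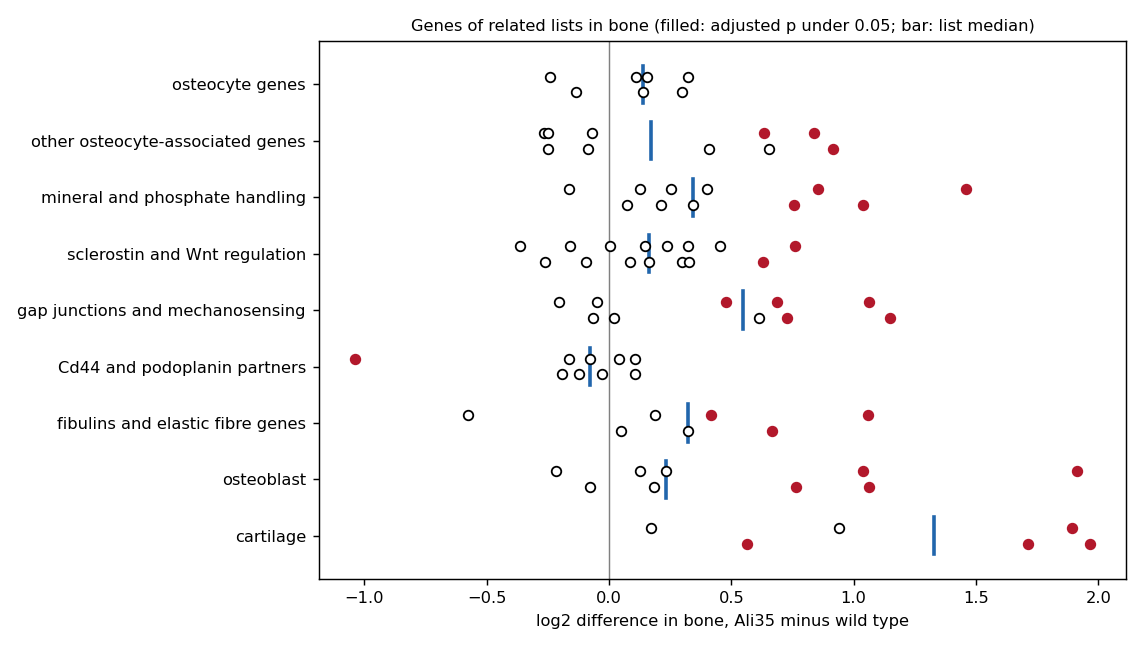
Log2 difference in bone, Ali35 minus wild type (x axis), of every tested gene in the osteocyte genes, in the 6 lists of related genes and in the osteoblast and cartilage markers; each point is 1 gene by its brightest probe, filled where called, and the vertical bar is the list's median. The osteocyte genes lie between -0.24 and 0.32 with 0 filled, and the mineral list and the gap junction and mechanosensing list have 4 and 5 filled points, all on the positive side. The lists were chosen with earlier results of these data known. Alpl and Ibsp stand in both the mineral list and the osteoblast markers.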

How the data were processed

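Total RNA of bone and brain had been hybridized to Illumina one-colour bead arrays, 1 per mouse. Per the submitters' processing notes, GenomeStudio 2011.1 was used; the normalization method is not given in the sources used here. The deposited values were linear intensity values; values below 0 and nearly equal quartiles among the 8 arrays of a tissue showed that background had been subtracted and each tissue normalized by the authors. A non-normalized table held 32 value columns that matched no label, and they were not used. Of 25697 probes, 23978 carried 1 gene symbol and 1719 none.

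Values below 16 were set to 16 and log2 values taken. Each tissue was fitted across all probes with limma 3.58.1 (lmFit, eBayes; 6 residual degrees of freedom) in R 4.3.3, two-sided, with calls at a Benjamini-Hochberg adjusted p under 0.05. The difference of the changes and the difference between tissues were contrasts in 1 fit of 16 arrays. Errors of log2 values are moderated standard errors (SE). A gene of a list stands by its brightest probe. The members, the lists and the tests were chosen with earlier results of these data known. Named were all members, up to 6 called genes of each list by lowest p, and up to 2 genes of each marker list. The fits were tested on simulated data. Promoter windows came from a RefSeq table, which held all 9 genes. Labels named each mouse separately, and the p-values measure the spread between these mice. Figures were drawn with matplotlib 3.10.9 under Python 3.11.15. Alternatives covered the floor, filter, scaling, variance model, threshold, replicate block, and leaving out each array.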

Additional observations from a re-analysis of the deposited data

Results flagged for a closer look

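Cd44 is listed because the difference of its genotype changes between the tissues was itself called, which held for 1 of 4 member probes and for 24.4% of all 9225 probes tested: the bone change minus the brain change was 0.55 ± 0.18 on the log2 scale for its bright probe (limma interaction term, adjusted p = 0.0362). The bright probe averaged 718 in Ali35 bone and 567 in wild-type bone, and 11.6 in Ali35 brain and 19.4 in wild-type brain, the brain values lying around the floor of 16. The interaction was lost in 10 of the 16 fits that left out 1 array, with adjusted p from 0.0177 to 0.0722 over the 16. Dixon's test for an outlying array was applied to 17 groups of 4 arrays, those with a member probe above the floor throughout. None of these groups held an array far enough from the other 3 to pass. The rule left out Sost in Ali35 bone, where replicate 2 read 2.24 and the other arrays 21.3 to 22.2. With only 4 arrays in a group, the test can miss all but a very distant array. It therefore does not decide whether Ali35 bone replicate 1 was an outlier for Cd44.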

How the results depend on the processing

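No member was called in bone under 10 of 11 other settings. Estimating the spread over all 16 arrays called 1, Sost (0.30, adjusted p = 0.0238), and leaving out single arrays called 0 to 1. In brain, the call of Pdpn became 0 members with the replicate block (adjusted p = 0.0765), with all 16 arrays in 1 fit (0.0644), and at a threshold of 0.01; without single arrays it was 0 throughout. The call on the difference of changes (Cd44) became 0 with a floor of 32 (0.32, adjusted p = 0.112) and with the replicate block (adjusted p = 0.0506), and was 0 to 1 without single arrays. The number of member probes called between tissues was 4 to 6. These were not always the same probes. After joint quantile normalization the 5 called included Pdpn, lower in wild-type bone, and no longer Gja1 or Fbln7. Signs turned for the second Cd44 probe in bone with a floor of 32 (-0.0075), for the Mepe difference of changes with a floor of 32 (0.14), and after joint quantile normalization for the bone-minus-brain values of Pdpn (-1.09) and Gja1 (-0.050). Without single arrays, Mepe ranged from -0.083 to 0.34 and Phex from -0.044 to 0.21 in bone, the Mepe difference of changes from -0.28 to 0.14, and Pdpn between tissues from -0.042 to 0.16. Over all probes, the 3006 calls in bone were 1034 at a threshold of 0.01 and 1634 to 2636 without single arrays. The 398 calls in brain were 248 with a floor of 8, 206 with the replicate block, 850 with a trended robust variance, 947 with all 16 arrays in 1 fit, 8 at a threshold of 0.01 and 43 to 245 without single arrays. Deviations of mice that share a replicate number correlated only weakly (r from -0.116 to 0.163 in bone and 0.012 to 0.14 in brain). Such values cannot exclude that the numbers pair the mice, and the labels state no pairing. The block was therefore fitted as an alternative. Counts of list genes under each setting were an alternative added after the data were seen. The gap junction list fell from 5 called genes to 3 with a floor of 32, at a threshold of 0.01 and without Ali35 bone replicate 3, and the mineral list from 4 to 3 under the first pair of settings. Without Ali35 bone replicate 1 these lists had 5 and 4, and the Wnt list fell from 2 to 1, the fibulin list from 3 to 2, the muscle list from 3 to 2 and the osteoclast list from 2 to 1. Low signal limits Dmp1, Fgf23, Sost and Fbln7 in bone and all members but Pdpn and Gja1 in brain.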

Other observations

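Several osteocyte genes had a like order over the wild-type bone mice, a pattern noticed after the values were seen. Replicates 1 and 4 both read above replicates 2 and 3 for 6 of the 9 genes (Dmp1, Sost, Mepe, Phex, Pdpn and Gja1), and for 5 of the 7 tested genes, while 20.2% of the 12223 probes tested in bone had this order. The summed intensity of the osteoblast markers had it too, at 60810 and 61200 on replicates 1 and 4 and at 44530 and 50370 on replicates 2 and 3. Among the Ali35 bone mice, replicates 1 and 4 both read above replicates 2 and 3 for 4 of the 9 genes (Sost, Mepe, Pdpn and Fbln7), against 22.4% of the 12223 probes. Replicate 2 was the lowest Ali35 bone array for 7 of the 9 genes (Dmp1, Sost, Mepe, Phex, Pdpn, Gja1 and Cd44), against 25.3% of the 12223 probes tested in bone. It was the lowest wild-type bone array for 5 of the 9 (Dmp1, Sost, Mepe, Pdpn and Fbln7), against 24.8% of the probes tested. The counts out of 9 include Dmp1 and Fgf23, which were not tested in bone. Their readings lay mostly below the floor, so their order over the arrays carries little weight.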
